A study of Mus musculus with 16 samples.

Results

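The CCN genes Ccn1 to Ccn5 encode a family of secreted matricellular proteins, and their transcripts were followed in ventricles of Trbp-deleted and control mice with and without pressure overload. The members were chosen by name, as Ccn1 (formerly Cyr61), Ccn2 (Ctgf), Ccn3 (Nov), Ccn4 (Wisp1) and Ccn5 (Wisp2), and their 5 rows were taken from a count table of 55573 genes. All 5 passed the filter on low counts, together with 19955 genes in total. The table held 16 hearts in 4 groups of 4 male mice, all of them Trbp-fl/fl with αMHC-MerCreMer, a Cre that is driven by a cardiomyocyte promoter and needs tamoxifen to act. Tamoxifen, 30 mg/kg daily for 5 days starting when the mice were 4 weeks old, made the Trbp-cKO groups, and corn oil the control groups. Each genotype had then undergone sham surgery or TAC, transverse aortic constriction, which loads the left ventricle with pressure, and ventricles were taken about 8 weeks later at 16 weeks of age. Tamoxifen was given to the deleted mice alone, so its own effect and that of the deletion cannot be told apart here, and Cre was present in both genotypes. Each library was 1 heart, not a pool. In the text, the deletion in sham hearts is Trbp-cKO sham relative to control sham, the deletion in TAC hearts is Trbp-cKO TAC relative to control TAC, and the response to TAC is TAC relative to sham within a genotype. Each group serves in more than 1 of these comparisons, so they share hearts.

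CCN proteins sit in the extracellular matrix without building its fibers. They bind integrins, heparan sulfate proteoglycans and growth factors, and so tune adhesion and signaling of the cells around them. In the heart Ccn2 is known as a companion of TGF-β in fibrosis, Ccn1 as a gene that responds within a short time to stretch and injury, and Ccn5, which lacks the C-terminal module of its relatives, as a member described to oppose Ccn2. Trbp, the product of Tarbp2, is a double-stranded RNA-binding partner of Dicer in the processing of miRNAs.

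Total counts per heart ran from 45166994 to 68274222, and levels are in CPM, counts scaled to library sizes that were adjusted by TMM. Tarbp2 averaged 32.2 and 27.0 CPM in the sham and TAC hearts of control mice and 9.53 and 8.62 CPM in those of deleted mice (log2 fold change for the deletion -1.76 in sham and -1.65 in TAC hearts). Control TAC hearts 1 and 2 drew 38.2% and 38.8% of their counts from the mitochondrial chromosome against 18.2% to 26.3% in the other hearts, and control sham heart 2 stood apart in immediate early genes. The sum over 8 defining cardiomyocyte markers was 53227 to 57115 CPM in control sham, 19594 to 53024 CPM in control TAC, 46296 to 56875 CPM in Trbp-cKO sham and 32351 to 54635 CPM in Trbp-cKO TAC hearts, and the adipocyte markers lay below the filter. For TAC in control hearts the median log2 fold change of these 8 was -0.48 with 0 above 0, and -0.10 without control TAC hearts 1 and 2, and its part in the CCN results was not tested.

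The promoter of Ccn1 is shown because Ccn1 and Ccn2 are textbook targets of the YAP and TEAD factors, whose genes are taken up below. Of the 5 members, Ccn1 matched the RefSeq promoter table of GRCm38.p6, and Ccn2, Ccn3, Ccn4 and Ccn5 are named only. The 250 bases before the Ccn1 start, chr3:145649986-145650235 on the minus strand, are printed 5′ to 3′ with 3 motif matches in capitals.
Ccn1 promoter: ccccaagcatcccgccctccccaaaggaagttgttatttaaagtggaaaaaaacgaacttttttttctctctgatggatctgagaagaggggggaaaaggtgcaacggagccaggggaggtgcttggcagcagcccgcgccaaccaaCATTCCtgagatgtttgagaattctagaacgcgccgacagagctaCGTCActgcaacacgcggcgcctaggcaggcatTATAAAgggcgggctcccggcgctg
The motifs were searched on both strands and did not overlap. The TEAD motif GGAATG was found on the opposite strand, 103 to 98 bases before the start, and 12.6% of 32851 promoter windows of the same length held it. The CRE core TGACG lay on the opposite strand 58 to 54 bases before the start, with a share of 17.8%, and TATAAA lay 25 to 20 bases before it, with a share of 12.4%. A match is a description of letters and not of a bound site.

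Since Trbp works with Dicer, the 3′ UTRs of the members were searched for seed matches of 6 mature miRNAs known from heart muscle or as regulators of this family, chosen by hand. The mature sequences with a match, from RefSeq with GRCm38.p6, carry their seed, bases 2 to 8, in capitals.
miR-30c-5p: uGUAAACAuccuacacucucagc
miR-18a-5p: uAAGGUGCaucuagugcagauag
miR-19b-3p: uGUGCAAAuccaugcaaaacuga
Ccn2 held 1 match each of miR-18a-5p and miR-19b-3p near the end of its 3′ UTR of 1067 bases, in windows that overlap, and Ccn1 and Ccn4 held 1 match of miR-30c-5p. The 24 bases around each match are shown with the seed match in capitals, from GENCODE M21 on GRCm38.
Ccn2, miR-18a-5p, chr10:24598620-24598643, plus strand: caaaagttacatgtttGCACCTTt
Ccn2, miR-19b-3p, chr10:24598617-24598640, plus strand: gaccaaaagttacatgTTTGCACc
Ccn1, miR-30c-5p, chr3:145647387-145647410, minus strand: gctccatattggagcaTGTTTACg
Ccn4, miR-30c-5p, chr15:66923139-66923162, plus strand: cattgttcaaattcttTGTTTACa
Among 3′ UTRs within 20% of the same length, 5.80% held the miR-18a-5p letters and 11.1% the miR-19b-3p letters in the case of Ccn2. The miR-30c-5p letters, shared with miR-30a-5p, were in 7.22% of UTRs of the length of Ccn1, in 16% of those of the length of Ccn3, which also held 1, and in 33.5% of those like Ccn4. The other two miRNAs, miR-133b-3p and miR-208a-3p, had no match in any member, which says only that these letters were not in these UTRs. miRNA levels were not analysed here.

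Ccn2 carried the largest share of the family's transcripts by group means and, of the members, the largest response to TAC in Trbp-cKO hearts. The gene (ENSMUSG00000019997, chr10:24595442-24598683, plus strand, protein coding) encodes the profibrotic factor that acts beside TGF-β. Its CPM was 194, 172, 192 and 131 in control sham hearts, 257, 360, 163 and 308 in control TAC hearts, 81.5, 60.6, 81.7 and 65.4 in Trbp-cKO sham hearts, and 1032, 721, 1088 and 1239 in Trbp-cKO TAC hearts. Every Trbp-cKO TAC heart was above every other heart, every Trbp-cKO sham heart was below every other heart, and the 2 control groups overlapped at 1 control TAC heart. The means were 172 ± 29.4 (SD, n = 4), 272 ± 83.7, 72.3 ± 10.9 and 1020 ± 218 CPM in the same order.

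A gene was called when the adjusted p over all 19955 genes was at most 0.05 and the absolute log2 fold change at least 0.8, the thresholds of the study, by the quasi-likelihood test of edgeR, from which all adjusted p below come unless another tool is named. In Trbp-cKO hearts Ccn2 was 14.1-fold higher after TAC (log2 fold change 3.82, standard error 0.25, adjusted p = 7.49e-07), rank 4 of all genes by p. The deletion in TAC hearts went with a 3.75-fold higher level (log2 fold change 1.91, 95% interval 1.41 to 2.41, adjusted p = 0.000334). In sham hearts the deletion went the other way, with Ccn2 2.38-fold lower (log2 fold change -1.25, standard error 0.23, adjusted p = 0.0143). In control hearts Ccn2 had a log2 fold change of 0.66 after TAC (95% interval 0.17 to 1.14), which was not called at an adjusted p of 0.0913. The interaction, the difference between the response to TAC in deleted and in control hearts, was 3.16 (log2, with a standard error of 0.33 and an adjusted p of 0.000604), the second smallest p of all genes.

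The rise of Ccn2 with the deletion in TAC hearts was called under all 27 alternatives run, with log2 fold changes between 1.72 and 2.1. The call in sham hearts was narrower: leaving out control sham heart 3, Trbp-cKO sham heart 2 or Trbp-cKO sham heart 4 gave adjusted p of 0.0512, 0.0573 and 0.0543 at log2 fold changes of -1.20, -1.18 and -1.21. Gm15270 overlaps Ccn2 on the opposite strand and lay between 1.86 and 6.12 CPM, against 60.6 CPM or more for Ccn2, and whether the counting used strand is not given in the sources used here.

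Ccn1, which like Ccn2 is an immediate early and TEAD target gene, rose less than Ccn2 after TAC in Trbp-cKO hearts. The gene (ENSMUSG00000028195, chr3:145646976-145649981, minus strand, protein coding) gave 50.1, 225, 67.0 and 55.5 CPM in control sham hearts, 63.6, 101, 68 and 65.9 in control TAC hearts, 43.8, 63.0, 34.4 and 28.0 in Trbp-cKO sham hearts, and 132, 167, 130 and 135 in Trbp-cKO TAC hearts. Control sham heart 2 was the highest of all 16, and apart from it the Trbp-cKO TAC hearts were above all others. The group means were 99.4 ± 84.0 (SD, n = 4), 74.6 ± 17.7, 42.3 ± 15.3 and 141 ± 17.4 CPM.

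Within the deleted hearts Ccn1 was 3.33-fold higher after TAC (log2 fold change 1.74, standard error 0.41, adjusted p = 0.0133). Without Trbp-cKO sham heart 4 this call was lost by a narrow margin, at a log2 fold change of 1.58 and an adjusted p of 0.0505. Trbp-cKO TAC and control TAC hearts did not overlap for Ccn1 (two-sided p = 0.0286 by exact permutation, which for 4 hearts against 4 is the smallest possible), but the log2 fold change of 0.92 was not called (adjusted p = 0.198). Without control sham heart 2 it was called, at 0.91 with an adjusted p of 0.0388, and so it was with all hearts by the exact test of edgeR (0.91, adjusted p = 0.00329), while DESeq2 did not call it (0.94, adjusted p = 0.110).

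Leaving out the same heart also moved the values of Ccn1 in the comparisons that follow. Its log2 fold change for the deletion in sham hearts was -1.23 (95% interval -2.09 to -0.37, adjusted p = 0.153; called by DESeq2 at -1.25, adjusted p = 0.0404), and -0.45 (adjusted p = 0.514) without control sham heart 2. For the response to TAC in control hearts it was -0.41 (adjusted p = 0.518), and 0.37 (adjusted p = 0.380) without that heart. The interaction was 2.15 (adjusted p = 0.0812) with it and 1.36 (adjusted p = 0.0798) without it, and DESeq2 called it with all hearts (2.19, adjusted p = 0.00506).

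Ccn4, known from Wnt1-transformed cells and from osteoblasts and fibroblasts, was the least abundant member and rose in the deleted hearts after TAC. The gene (ENSMUSG00000005124, chr15:66891320-66923201, plus strand, protein coding) gave 0.973, 0.582, 0.470 and 0.670 CPM in control sham hearts, 0.782, 1.76, 0.629 and 0.527 in control TAC hearts, 0.568, 0.399, 0.381 and 0.552 in Trbp-cKO sham hearts, and 3.73, 3.63, 2.83 and 8.10 in Trbp-cKO TAC hearts. The Trbp-cKO TAC hearts were above all others, and the other 3 groups overlapped. These levels rest on 25 to 93 counts a heart outside the Trbp-cKO TAC group and on 187 to 510 within it.

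In Trbp-cKO hearts Ccn4 was 9.66-fold higher after TAC (log2 fold change 3.27, standard error 0.42, adjusted p = 0.000155), and with the deletion in TAC hearts 4.95-fold higher (log2 fold change 2.31, standard error 0.40, adjusted p = 0.00372). The latter was not called with only the 2 groups compared (2.29, adjusted p = 0.0819), and without control TAC hearts 1 and 2 it was 2.96 (adjusted p = 0.00229). It was not called for TAC in control hearts (0.45, 95% interval -0.40 to 1.31) or for the deletion in sham hearts (-0.51, 95% interval -1.40 to 0.37). The first of these values was -0.07 without control TAC heart 2, which had the highest Ccn4 of the controls. The interaction was 2.82 (standard error 0.57, adjusted p = 0.0325). That call was lost in 8 of the 16 fits that left out a heart, with adjusted p up to 0.0751 and log2 values from 2.39 to 3.33. Without control TAC hearts 1 and 2 the interaction was 3.49 (adjusted p = 0.00836).

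Ccn5 rose after TAC in both genotypes and with the deletion. The gene (ENSMUSG00000027656, chr2:163820861-163833146, plus strand, protein coding) gave 2.39, 4.12, 3.06 and 4.69 CPM in control sham hearts, 43.2, 43.2, 10.8 and 18.3 in control TAC hearts, 18.5, 8.56, 9.90 and 8.88 in Trbp-cKO sham hearts, and 69.6, 58.5, 52.9 and 85.9 in Trbp-cKO TAC hearts. The control sham hearts were below all others and the Trbp-cKO TAC hearts above all others, while control TAC and Trbp-cKO sham hearts overlapped. The means were 3.57 ± 1.03 (SD, n = 4), 28.9 ± 16.8, 11.5 ± 4.71 and 66.7 ± 14.6 CPM.

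In control hearts Ccn5 was 8.10-fold higher after TAC (log2 fold change 3.02, standard error 0.41, adjusted p = 0.00109). In Trbp-cKO hearts it was 5.84-fold higher after TAC (log2 fold change 2.55, standard error 0.40, adjusted p = 0.000834). The interaction for Ccn5 was -0.47 with a 95% interval of -1.63 to 0.68, so the responses were not shown to differ. In sham hearts the deletion went with a 3.20-fold higher level (log2 fold change 1.68, standard error 0.40, adjusted p = 0.0462). Of the 16 fits without a heart, 11 did not make this call. Over the 16 fits the log2 fold change was 1.34 to 1.83 and the adjusted p 0.0188 to 0.148. Without control sham heart 2 they were 1.75 and 0.0875. Averaged over both surgeries, the effect of the deletion on Ccn5 was 1.44 (standard error 0.28, adjusted p = 0.00679).

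Ccn5 had, for the deletion in TAC hearts, a log2 fold change of 1.21 (95% interval 0.39 to 2.02, adjusted p = 0.0788) and was not called, although the groups did not overlap. The control TAC hearts 1 and 2, both at 43.2 CPM, were those with the high mitochondrial share. With both left out, an alternative chosen after seeing the data, Ccn5 was called at 2.18 (adjusted p = 0.00499) in this comparison, and the response of control hearts to TAC was 2.03 (adjusted p = 0.0132) in place of 3.02.

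Ccn3, known for expression in endothelial and neural cells, showed no called difference in any of the 6 comparisons. The gene (ENSMUSG00000037362, chr15:54745702-54754039, plus strand, protein coding) gave 6.08, 4.80, 5.11 and 5.06 CPM in control sham hearts, 8.04, 12.2, 5.99 and 5.05 in control TAC hearts, 4.34, 5.35, 7.60 and 5.23 in Trbp-cKO sham hearts, and 4.81, 4.69, 4.62 and 7.07 in Trbp-cKO TAC hearts. All 4 groups overlapped. Its log2 fold changes were 0.57 for TAC in control hearts (95% interval 0.05 to 1.09, adjusted p = 0.156), -0.56 for the deletion in TAC hearts (-1.08 to -0.04, adjusted p = 0.198), 0.10 for the deletion in sham hearts (-0.42 to 0.62) and -0.09 for TAC in Trbp-cKO hearts (-0.61 to 0.43). At an unadjusted p under 0.05 there were 2 of the 6 comparisons, those in which control TAC hearts entered a pairwise test, and neither DESeq2 nor the exact test of edgeR called any. Without control TAC hearts 1 and 2 these were 0.071 for TAC in control hearts and -0.074 for the deletion in TAC hearts.

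**Figure D1:**
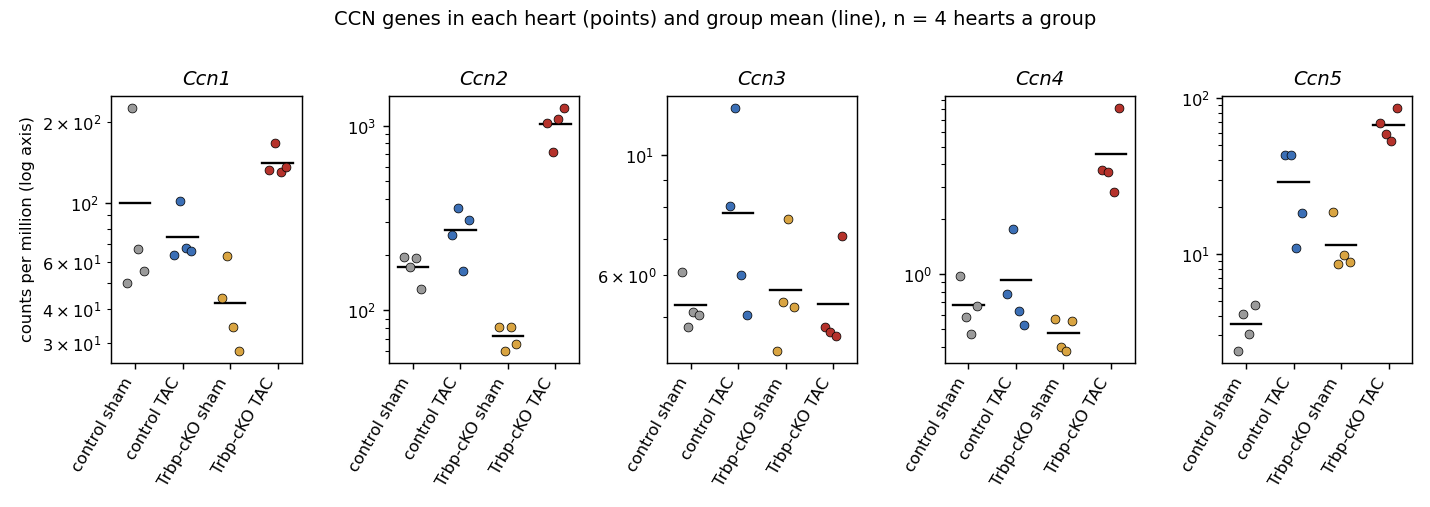
CPM of each CCN gene on a log axis in each of 16 hearts, with a line at the mean of each group of 4. Ccn2, Ccn4 and Ccn5 were highest in all 4 Trbp-cKO TAC hearts, Ccn1 was too apart from control sham heart 2 at 225 CPM, and the groups overlapped for Ccn3.

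Counted over the family, 1 of 5 members was called higher after TAC in control hearts, where 2.5% of all genes were called higher and 1.25% lower. For the deletion in sham hearts 1 was called higher, with a background of 0.511%, and 1 lower, with a background of 0.456%. For the deletion in TAC hearts 2 were called higher (background 1.55%), for TAC in Trbp-cKO hearts 4 were called higher (background 3.23%, with 2.34% called lower), in the interaction 2 (background 0.446%) and in the average effect of the deletion 1 (background 0.927%). Groups did not overlap for 1 member for TAC in control hearts (17.4% of all genes), 2 for the deletion in sham hearts (14.7%), 4 for the deletion in TAC hearts (10%) and 4 for TAC in Trbp-cKO hearts (17.2%).

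**Figure D2:**
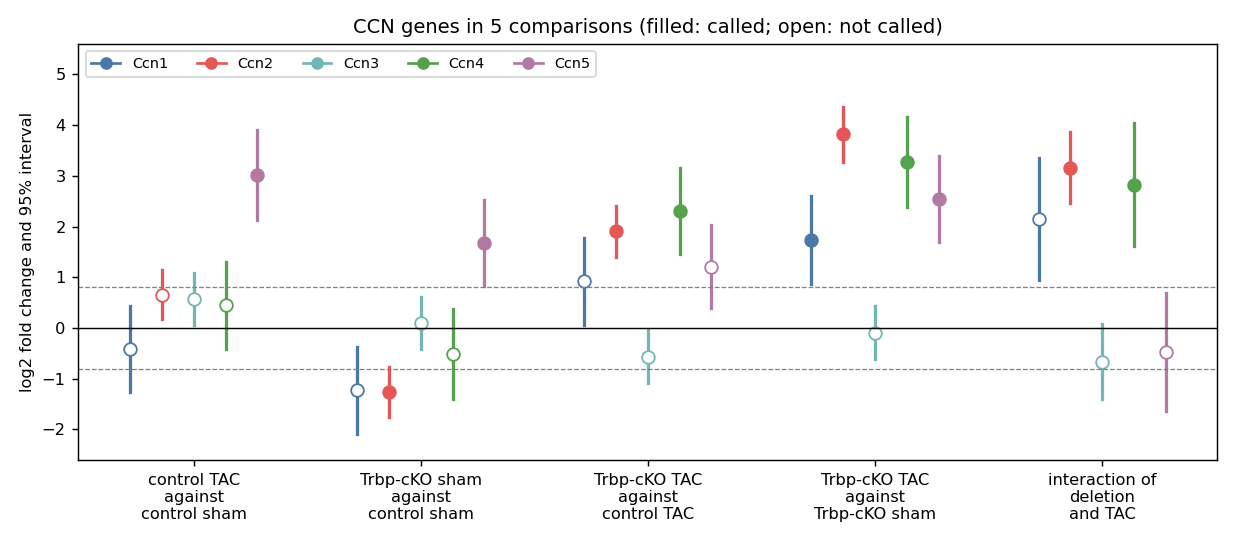
Log2 fold change (points) and 95% interval (lines) of each CCN gene in 4 pairwise comparisons and the interaction, filled where called, with dashed lines at the fold threshold of 0.8. Ccn2 stood at -1.25 for the deletion in sham hearts and at 1.91 for the deletion in TAC hearts, and Ccn5 was above 0 in all 4 pairwise comparisons.

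To compare levels between members, CPM was divided by the exon length in kilobases. On that scale the 5 genes summed to 113 ± 42.9 (SD, n = 4) and 150 ± 42.6 in the sham and TAC hearts of control mice, and to 54.2 ± 8.03 and 464 ± 74.5 in those of deleted mice. Ccn2 held 57.1% ± 15.9 and 63.0% ± 5.58 of this sum in control mice after sham surgery and TAC, and 47.2% ± 8.08 and 76.3% ± 5.27 in deleted mice. Ccn1 held 39.2% ± 16.7, 25.5% ± 5.97, 38.1% ± 10.1 and 15.6% ± 4.68 in the same order. The share of Ccn5 was 1.8% ± 0.907 in control sham hearts and 9.59% ± 4.51, 10.9% ± 3.42 and 7.50% ± 1.15 in the other groups, Ccn3 held 0.398% to 3.70% on average and Ccn4 0.107% to 0.174%. The order of levels per length was Ccn2, Ccn1, Ccn5, Ccn3 and Ccn4 by the means of each group. In control sham hearts Ccn5 and Ccn3, at 1.85 ± 0.536 and 1.83 ± 0.196 CPM per kilobase, did not differ beyond their spread. Nor did the means of Ccn2 and Ccn1 in that group, where heart 2 had 63.5% of the sum in Ccn1 and 34.3% in Ccn2, or in Trbp-cKO sham hearts, where they were at 25.3 ± 3.83 and 21 ± 7.56 CPM per kilobase. Within single hearts, Ccn2 was above Ccn1 in both sham groups except in heart 2 of each. Trbp-cKO sham heart 2 had 53.1% of the sum in Ccn1 and 36.0% in Ccn2. The difference within hearts was not tested.

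**Figure D3:**
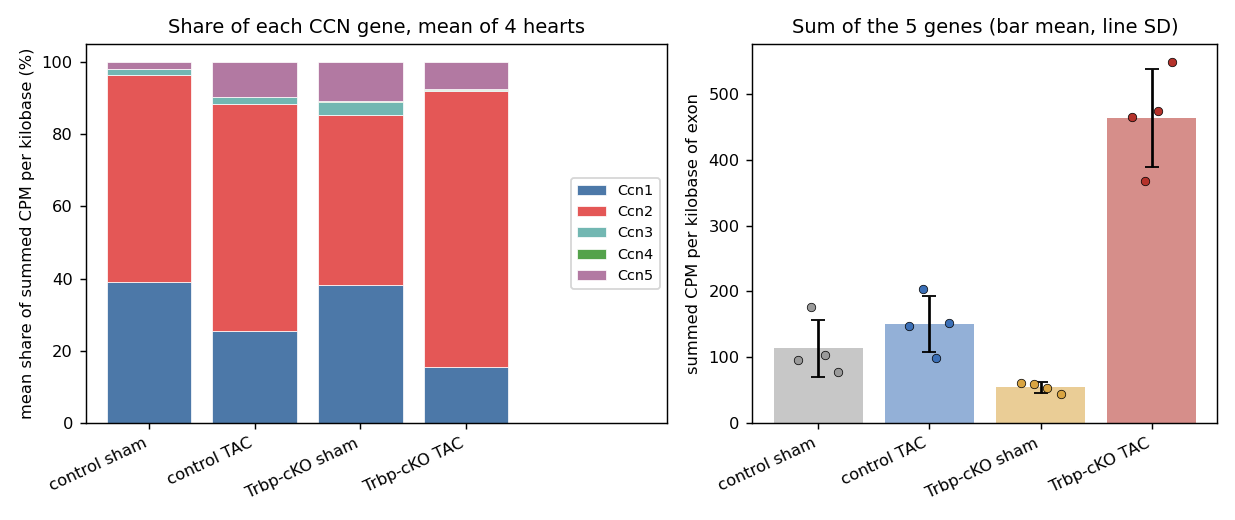
Left, mean share of each CCN gene in the family's summed CPM per kilobase of exon, for 4 hearts a group. Right, that sum for each heart (points), with bars for means and lines for 1 SD. The share of Ccn2 was 76.3% in Trbp-cKO TAC hearts and 47.2% in Trbp-cKO sham hearts, whose sums were 464 and 54.2.

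The receptors of CCN proteins were described by a list of 14 genes of integrin subunits, LRPs, the proteoglycan Sdc4 and further receptors. Sdc4, syndecan 4, a coreceptor for Ccn2 and fibronectin, was called lower after TAC in control hearts (log2 fold change -0.84, adjusted p = 0.00909) and higher with the deletion in TAC hearts (0.86, adjusted p = 0.00662). Without control TAC hearts 1 and 2 neither passed, at -0.79 (adjusted p = 0.109) and 0.80 (adjusted p = 0.0447, before rounding just under the fold threshold). Itga5, the α subunit of the fibronectin integrin, was lower with the deletion in sham hearts (-0.83, adjusted p = 0.0446) and higher after TAC in Trbp-cKO hearts (1.13, adjusted p = 0.00170). Itgb3, the β subunit of the vitronectin integrin, was called higher with it in the latter comparison (1.51, adjusted p = 0.0234). In the interaction Sdc4 (1.47, adjusted p = 0.00779) and Itga5 (1.26, adjusted p = 0.0416) were called higher, as Ccn2 and Ccn4 were. No other receptor gene of the list was called in these comparisons, and its median was 0.40 for the deletion in TAC hearts, beside -0.01 over all genes.

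YAP, TAZ and TEAD factors drive Ccn1 and Ccn2 in many cells. None of the 16 genes of that pathway, Yap1, Wwtr1 and the Tead genes among them, was called in any of the 6 comparisons by edgeR. At an unadjusted p under 0.05 there were 5 for the deletion in TAC hearts and 8 for TAC in Trbp-cKO hearts, where DESeq2 and the exact test of edgeR each called 1. In the latter comparison 15 of the 16 were above 0, with a median of 0.31, and the sum of the 16 was 769 to 881 CPM in Trbp-cKO TAC hearts and at most 694 CPM in every other heart. Yap1, Mob1b and Amotl1 passed the adjusted p there but not the fold threshold, at 0.44, 0.75 and 0.42. Of 20 further targets of these factors, 2 were called higher with the deletion in TAC hearts, Nt5e, an ectonucleotidase, at 1.14 (adjusted p = 0.00540) and Tgfb2 at 1.39 (adjusted p = 0.000119). Ankrd1, a stress gene of the sarcomere, was higher after TAC in control hearts (1.48, adjusted p = 7.24e-05) and in Trbp-cKO hearts (1.33, adjusted p = 2.80e-05), and Gadd45a, a growth arrest gene, was lower in both (-0.83 and -1.03), the first not called without control TAC hearts 1 and 2 (-0.73, adjusted p = 0.212). The median over the 20 targets was 0.18 for the deletion in TAC hearts and 0.32 for TAC in Trbp-cKO hearts, and for the deletion in sham hearts none was called by the quasi-likelihood test or DESeq2, with 4 at an unadjusted p under 0.05, and the exact test called 1 higher.

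TGF-β is another known inducer of Ccn2. Of 13 genes of its pathway, of which Tgfb2 is also on the TEAD target list, the ligand genes Tgfb2 and Tgfb3 were called higher after TAC in control hearts (log2 fold changes 1.31 and 1.05) and with the deletion in TAC hearts (1.39 and 1.72). Without control TAC hearts 1 and 2 Tgfb3 was not called in the former (0.60, adjusted p = 0.332). Within Trbp-cKO hearts 4 were called higher after TAC, with Tgfb2 at 2.41, Tgfb3 at 2.16, the receptor gene Tgfbr1 at 0.84 and the SMAD repressor gene Skil at 0.93. Tgfb2 was the member of this list called in the interaction (1.10, adjusted p = 0.0260). For the deletion in sham hearts 0 of the 13 were called by edgeR, with 2 at an unadjusted p under 0.05 and 0 by DESeq2.

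Of 8 TGF-β target genes, 5 were called higher with the deletion in TAC hearts. Fn1, fibronectin, was at 1.07 (adjusted p = 0.000779). Acta2, smooth muscle actin, was at 2.35 (adjusted p = 0.000289) and was lower after TAC in control hearts (-1.27) and higher with the deletion in sham hearts (1.18). The former was not called without control TAC hearts 1 and 2 (-1.39, adjusted p = 0.106), and the latter not without control sham heart 2 (1.25, adjusted p = 0.0755). The 5 fibrotic genes Col1a1, Col1a2, Col3a1, Col5a2 and Postn, a list the study chose on these hearts and thus no independent evidence, were all called higher after TAC in both genotypes, and 4 of 5 were called higher with the deletion in TAC hearts (3 by the exact test of edgeR). With the deletion in sham hearts all 5 were above 0 with a median of 0.47, 4 had an unadjusted p under 0.05, and 0 were called by the quasi-likelihood test or DESeq2 and 1 by the exact test. After TAC in control hearts DESeq2 called 4 of 5, and without control sham heart 2 Col5a2 was not called (1.03, adjusted p = 0.0789). Without control TAC hearts 1 and 2, 1 of 5 was called after TAC in control hearts and 5 of 5 with the deletion in TAC hearts. None was called in the interaction by edgeR or DESeq2, with 1 at an unadjusted p under 0.05.

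Ccn4 and Ccn5 were first described as Wnt-induced genes. None of the 9 Wnt target genes tested, of 10 listed, was called in any comparison by edgeR or DESeq2, with 2 or 3 at an unadjusted p under 0.05 in each pairwise comparison. Their levels were low: the 10 summed to 13.3 to 14.2 CPM in Trbp-cKO TAC hearts and to at most 11.7 CPM in every other heart. None of the 4 genes of the SRF factors, which also act on CCN promoters, was called by edgeR, with 1 for TAC in control hearts and 2 for the deletion in sham hearts at an unadjusted p under 0.05, and DESeq2 called 1 lower after TAC in control hearts.

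Immediate early genes are transcription factor and regulator genes induced within a short time of a stimulus, and they were listed here because earlier results of these hearts showed them to move with the groups. Of 18 such genes, 4 were called lower with the deletion in sham hearts, Fosl2 at -1.41, Egr3 at -2.03, Egr2 at -2.54 and Myc at -1.23, and the list's median was -0.93. Without control sham heart 2 the median was -0.37 and 1 of the 18 was called, Myc at -1.40 (adjusted p = 0.0411), while Egr2 was at -1.30 (adjusted p = 0.0755), Egr3 at -1.38 (0.0949) and Fosl2 at -1.15 (0.0796). After TAC in Trbp-cKO hearts 4 were called higher, Atf3 at 1.40, Maff at 1.63, Egr2 at 2.21 and Myc at 1.11, and all 18 were above 0. With the deletion in TAC hearts 1 was called, Ier3, which was higher (1.18, adjusted p = 0.00815, and not called without control TAC hearts 1 and 2 at 1.02, adjusted p = 0.0611). Ier3 was also called higher in the average effect of the deletion (0.95, adjusted p = 0.00327). Egr2 (3.81) and Atf3 (2.1) were called in the interaction, at 2.56 and 1.63 without control sham heart 2, and were not called without control TAC hearts 1 and 2 (3.91 and 2.22, adjusted p = 0.0978 and 0.0738). The mean z score of this list was 1.8 in control sham heart 2 and -0.22 to 0.03 in the rest of its group. It ran from -0.59 to 1.03 in the TAC hearts of control mice, and in deleted mice from -0.89 to -0.51 after sham surgery and from -0.07 to 1.04 after TAC. With the score added to the fit, after seeing the data, Ccn2 had a log2 fold change of -1.09 in sham hearts (adjusted p = 0.0932, not called), and Ccn1 0.94 for TAC in Trbp-cKO hearts (adjusted p = 0.0674, not called). The interaction of Ccn4 was 2.17 in that fit (adjusted p = 0.142, not called). The score did not overlap between control and deleted sham hearts, or between sham and TAC hearts of deleted mice. In these comparisons it cannot be told apart from the deletion or from TAC. Ccn1 and Ccn2 are also immediate early genes themselves, so the score is not independent of them.

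Circadian clock genes were listed for the same reason, and their score, with Arntl, Npas2, Clock, Cry1 and Nfil3 counted up and the others down, was 0.51 to 1.22 in control sham hearts and -1.0 to -0.84 in Trbp-cKO sham hearts, so that clock state and deletion cannot be told apart in sham hearts. With it in the fit Ccn2 was at -0.67 in sham hearts (adjusted p = 0.917) and 2.52 in the interaction (adjusted p = 0.458), a fit that called 0 of all genes in the first and 1 in the second comparison. Ccn1 was at 1.3 for TAC in Trbp-cKO hearts in that fit (adjusted p = 0.346) and the average effect of the deletion on Ccn5 at 1.43 (adjusted p = 0.221), neither of them called. The rise of Ccn2 with the deletion in TAC hearts was called with either score in the fit.

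**Figure D4:**
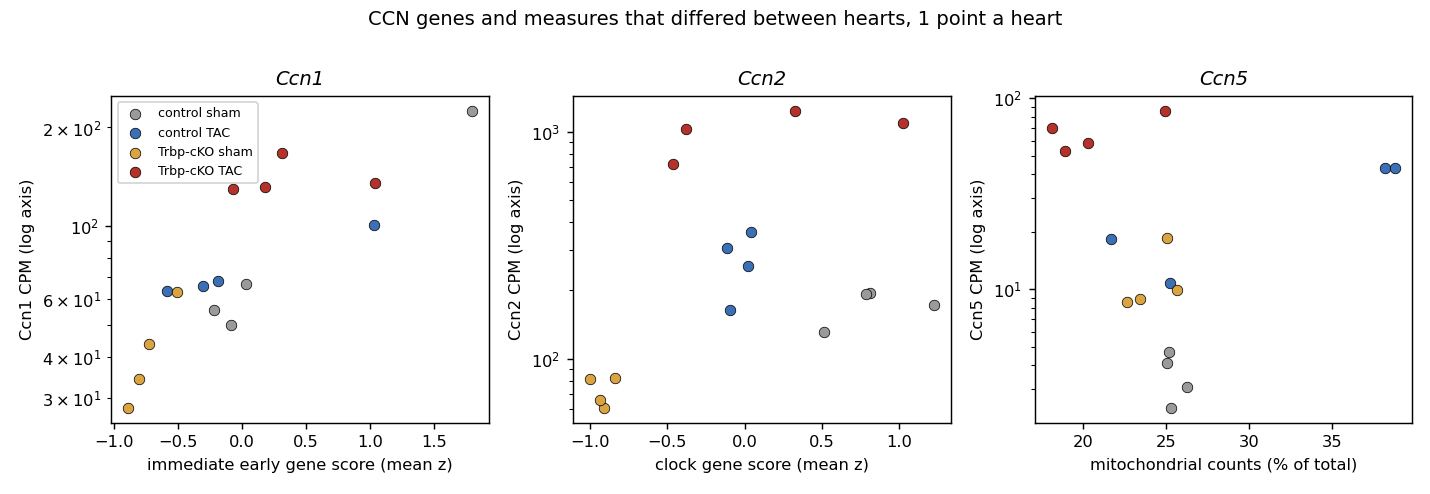
CPM on a log axis in each heart for Ccn1 against the immediate early gene score, Ccn2 against the clock gene score and Ccn5 against the mitochondrial share of counts. Control sham heart 2 was highest on both axes for Ccn1 (1.8 and 225 CPM), the Trbp-cKO sham hearts were lowest on both axes for Ccn2, and control TAC hearts 1 and 2 had 43.2 CPM of Ccn5 at 38.2% and 38.8%.

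In bulk ventricle, fewer cells of a type and less RNA per cell cannot be told apart. The sum of 8 fibroblast markers ran from 1594 to 1718 CPM and from 1726 to 2431 CPM in control mice after sham surgery and TAC, and from 1767 to 2345 and from 1669 to 2647 CPM in deleted mice. Col1a1 was called higher with the deletion in TAC hearts, where 2 of the 8 were above 0 and their median was -0.041. The median was 0.44 for the deletion in sham hearts, with 7 of the 8 above 0, and 0.43 for TAC in control hearts, with 7 above 0, both of them comparisons in which Ccn5 was called higher. It was -0.068 with 3 above 0 for TAC in Trbp-cKO hearts, where Ccn5 was called higher too. The median for TAC in control hearts was 0.17 without control TAC hearts 1 and 2. Lum was called lower in the interaction (-0.86, adjusted p = 0.0129). The sum of 5 atrial markers was at most 3886 CPM in the first 3 groups and 10291 to 15770 CPM in Trbp-cKO TAC hearts. Nppa, which ventricles also express under load, made up most of this sum. Its mean in Trbp-cKO TAC hearts was 12407 CPM, against 56.1 CPM for Dkk3 and 5.69 CPM for Myl4. With the deletion in TAC hearts 3 of the 4 tested were called higher, Nppa, Myl4 (1.90, adjusted p = 0.00019) and Dkk3 (1.31, adjusted p = 0.0158), and Myl4 was called in the interaction (1.64, adjusted p = 0.0201). The defining atrial genes Myl7 and Sln were at or below 0.479 and 0.175 CPM in every heart, but Myl7 lay at 0.293 to 0.479 CPM in Trbp-cKO TAC hearts and at most at 0.182 CPM in the others, and the exact test of edgeR called 4 of the 4 atrial markers it tested higher with the deletion in TAC hearts. The sum of 6 cartilage and valve markers was at most 17.2 CPM in sham hearts, 19.5 to 153 CPM in control TAC and 136 to 654 CPM in Trbp-cKO TAC hearts, where Comp (mean 225) and Fmod (mean 94.1) made up most of it, while Acan, Chad and Col2a1 had group means of at most 1.51 CPM. Of these 6, 5 were called higher after TAC in Trbp-cKO hearts, Acan (2.09, adjusted p = 0.0210) and Chad (1.52, adjusted p = 0.0111) among them. After TAC in control hearts 3 were called higher, and 0 without control TAC hearts 1 and 2. With the deletion in TAC hearts 1 was called, Fmod at 2.81 (adjusted p = 0.0187), and 3 without those hearts. The sum of 6 smooth muscle markers ran from 273 to 539 CPM in control hearts and from 521 to 961 CPM in Trbp-cKO hearts. This difference in the sum lay in Acta2, since the other 5 genes of that list summed to 228 to 264 and 191 to 213 CPM in control mice after sham surgery and TAC, and to 228 to 270 and 183 to 227 CPM in deleted mice. Among them Cnn1 was called higher with the deletion in TAC hearts (0.90, adjusted p = 0.0453). Without control TAC hearts 1 and 2 Cnn1 was not called there (1.03, adjusted p = 0.0953). After TAC in Trbp-cKO hearts Cnn1 (1.29) and Tagln (0.82) were called higher. The part of these tissues in the CCN results was not tested.

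Likeness of pattern was measured as Pearson's r of log2 CPM over the 16 hearts with each of 12117 named genes whose mean log2 CPM reached 1, and again after subtraction of group means. The hearts share groups, libraries and depth, so these values are a description. Ccn1 was most like Egr2 (0.93, and 0.94 within groups), Atf3 (0.82 and 0.64) and Btbd10 (0.81 and 0.49). These values include control sham heart 2, at 225 CPM of Ccn1 against 50.1 to 67.0 CPM in the rest of its group. That heart also stood apart in immediate early genes, of which Egr2 and Atf3 are members. The values were not computed without it. For Ccn2 the leading genes were Picalm (0.97 and 0.63), Nppb (0.96 and 0.71) and Col22a1 (0.95 and 0.37), and for Ccn4 they were Col22a1 (0.96 and 0.87), Slc39a6 (0.95 and 0.58) and Syt13 (0.95 and 0.62). Nppb encodes the natriuretic peptide BNP and Col22a1 a collagen of tissue junctions.

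The 3 genes most like Ccn5 were Ahnak2 (0.98, and 0.79 within groups), Pi16 (0.97 and 0.82) and Mfap4 (0.97 and 0.82). Pi16 marks adventitial fibroblasts and Mfap4 is a microfibril protein. For Ccn3 they were Zbtb46 (0.96 and 0.96), Rapgef3 (0.96 and 0.95) and Mmrn2 (0.95 and 0.94), with values within groups about as high as over all hearts. Mmrn2 is an endothelial matrix protein, and the 7 endothelial markers had a median log2 fold change of 0.51 for TAC in control hearts and -0.49 for the deletion in TAC hearts, beside 0.57 and -0.56 for Ccn3. Without control TAC hearts 1 and 2 these medians were -0.036 and 0.070, beside 0.071 and -0.074 for Ccn3. The part of endothelial cells in the values of Ccn3 was not tested. Among the members themselves r was highest for Ccn2 and Ccn4 (0.90, and 0.41 within groups), and the highest value within groups was 0.70 for Ccn3 and Ccn4, which had 0.09 over all hearts. Control TAC heart 2 (12.2 and 1.76 CPM) and Trbp-cKO TAC heart 4 (7.07 and 8.10 CPM) were each the highest of their group in both Ccn3 and Ccn4. The value was not computed without these hearts.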

How the data were processed

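The deposited values are counts per gene and heart, which the authors made from poly(A)-selected libraries with Cutadapt 2.3, HISAT2 2.1.0 on GRCm38 and StringTie 1.3.4, without normalization. The GENCODE release and strand setting are not given in the sources used here, and counts derived from coverage can exceed fragments by a common factor. GENCODE M21 placed 55480 genes. edgeR 4.0.16 in R 4.3.3 was run with its default filter, TMM and a robust quasi-likelihood fit of 16 hearts, with Benjamini-Hochberg adjustment over 19955 genes and 95% intervals. Members were also tested by exact permutation of log2 CPM (prior count 1) over 70 assignments. The fits were tested on simulated data. No libraries were identical.

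The members and gene lists were chosen with earlier results of these data known. Named genes were mainly the members, called genes of the lists (at most 4 by adjusted p, where the fibrotic list is named whole) and the 3 most alike to each member. Outside this rule, some genes not called by the quasi-likelihood test are named. Among them are Yap1, Mob1b and Amotl1, which passed the adjusted p alone, and Myl7, Sln and Col2a1, given for their levels. Lists covered the TEAD and TGF-β pathways and their targets, SRF regulators, CCN receptors, Wnt targets, immediate early, fibrotic, hypertrophy and clock genes, and cell type markers. Alternatives were library size scaling, the 2 groups alone, the exact test, DESeq2 1.42.0, other filters, halved counts, a replicate block, other thresholds and each heart left out. Both gene scores as covariates and leaving out hearts with over 30% mitochondrial counts were added after seeing the data. The values of 1 listed gene are not reported here.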

Additional observations from a re-analysis of the deposited data

Results flagged for a closer look

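Within groups of 4 hearts, 3 of the 20 sets of member and group had a heart far from the others by Dixon's test at the 95% level on log2 CPM, where chance gives about 1 in 20. Ccn1 was at 101 CPM in control TAC heart 2 and at 167 CPM in Trbp-cKO TAC heart 2, each the highest of its group. Ccn3 was at 7.07 CPM in Trbp-cKO TAC heart 4, the highest of its group. The response to TAC differed between Trbp-cKO and control hearts for Ccn2 (interaction 3.16 on the log2 scale, adjusted p = 0.000604, edgeR) and for Ccn4 (2.82, adjusted p = 0.0325).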

How the results depend on the processing

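The count of CCN genes called for the deletion in sham hearts, 2 as reported, was 0 with the immediate early gene score, 0 with the clock gene score, 0 with the replicate block, 1 with no filter, 3 with DESeq2, and 0 to 2 with a heart left out. For the deletion in TAC hearts, 2 as reported, it was 1 with only the 2 groups compared and 3 with DESeq2, with the exact test, with library size only and without the hearts of over 30% mitochondrial counts, and 2 to 3 with a heart left out. For TAC in Trbp-cKO hearts, 4 as reported, it was 3 with either score and 3 to 4 with a heart left out. In the interaction, 2 as reported, it was 1 with the immediate early gene score, 0 with the clock gene score, 1 with the replicate block, 3 with DESeq2 and 1 to 2 with a heart left out. For the average effect of the deletion, 1 as reported, it was 2 with the immediate early gene score, with library size only, with DESeq2 and without the hearts of over 30% mitochondrial counts, 0 with the clock gene score, and 1 to 2 with a heart left out. For TAC in control hearts it was 1 to 2 with a heart left out, with Ccn2 called at 0.83 (adjusted p = 0.0198) without control TAC heart 3. The cause was not tested.

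With the replicate block Ccn2 and Ccn5 in sham hearts were at -1.26 and 1.63 (adjusted p = 0.0507 and 0.0846) and Ccn4 in the interaction at 2.78 (0.0663). Same-numbered hearts did not deviate together (median r -0.017, from -0.39 to 0.19 over 24 pairs), so the numbers were not taken as pairs.

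Values that changed sign, none of them called, were these. Ccn1 for TAC in control hearts was 0.16 with the immediate early gene score, 0.051 with the clock gene score and -0.65 to 0.37 with a heart left out, the highest without control sham heart 2. Its average effect of the deletion was 0.28 and 0.27 with the scores and -0.28 to 0.23 with a heart left out, again highest without that heart. Without the hearts of over 30% mitochondrial counts, Ccn4 for TAC in control hearts was -0.22, the interaction of Ccn5 0.51 and the average effect of the deletion on Ccn3 0.0094. With a heart left out, Ccn4 ranged from -0.065 to 0.67 for TAC in control hearts, Ccn3 from -0.080 to 0.19 for the deletion in sham hearts, and Ccn3 from -0.26 to 0.088 for TAC in Trbp-cKO hearts.

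For the deletion in TAC hearts Ccn4 was at 2.29 (adjusted p = 0.0819) with only the 2 groups, and Ccn5 was called with library size only (1.36) and with DESeq2 (1.24). Library size alone moved the median of all genes to 0.11 for the deletion in sham hearts and 0.13 in TAC hearts. Ccn2, Ccn4 and Ccn5 were called for TAC in Trbp-cKO hearts under all 27 alternatives. Ccn4 had the fewest counts.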

Other observations

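Ccn6, the remaining CCN gene of the table, had 0 to 20 counts a heart and at most 0.285 CPM, below the filter, and was not tested. Of 4 hypertrophy markers, Nppa (2.09) and Nppb (1.39) were called higher with the deletion in TAC hearts, and Nppb, at 1.79 (adjusted p = 0.0300, edgeR), was called in the interaction as Ccn2 was.

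Of 15 clock genes, 6 were called higher and 2 lower with the deletion in sham hearts. Without control sham heart 2 these were 4 and 1, with Arntl, Tef and Ciart not called (adjusted p = 0.0678, 0.0627 and 0.0733). Their log2 fold changes were then -2.47, 1.00 and 1.27, beside -2.57, 1.04 and 1.47 with all hearts. Of 7 macrophage markers, 0 were called by edgeR's quasi-likelihood test or DESeq2 for the deletion in sham hearts, with 1 at an unadjusted p under 0.05, and its exact test called 1 lower. Of 8 cardiomyocyte markers, 0 were called by edgeR or DESeq2 in any comparison, with 3 at an unadjusted p under 0.05 for TAC in control hearts.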
